A study of Mus musculus with 5 samples.

Results

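Runx3 binding and H3K4me1 marking were examined in IL-2-activated NKC at 10 genes of activating receptor signalling. Among them is Ncr1, which encodes the receptor NKp46. The genes were Ncr1, Fcgr3, Fcer1g, Cd247, Tyrobp, Hcst, Zap70, Syk, Lat2 and Vav1. They were chosen by name, with earlier results of these data known, out of 22350 protein-coding genes of the GENCODE M1 annotation on autosomes and chromosome X. Peaks were assigned to a gene when they shared at least 1 bp with the gene or with 20 kb on either side of it (the window of the gene). The windows of the 10 genes held 21 of the 11676 Runx3 peaks and 80 of the 34204 H3K4me1 peaks. H3K4me1, monomethylation of lysine 4 of histone H3, is a mark enriched at enhancers and beside active promoters.

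The data came from ChIP-seq of splenic NKC of ICR mice that had been cultured for 7 days with 1000 units/ml of human recombinant IL-2. The cells were cross-linked in 1% formaldehyde and sheared to fragments of about 300 bp, and 40 bp reads were aligned to mm9. There were 2 libraries with an antibody to Runx3, 1 with an antibody to H3K4me1 and 2 with non-immune serum (NIS), which served as control. All libraries carried the same IL-2 treatment, so the lists hold no untreated group and no comparison of conditions could be made. The Runx3 list was called on the joined reads of both libraries and neither list gives a height, a score or a value per library, so no value below has a replicate error and sequencing depth cannot be read from the lists. The labels describe the cultured cells as positive for NKp46. The lists hold no expression values, so the purity of the culture could not be checked from them.

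Activating receptors of NKC such as NKp46 and the Fc receptor CD16 signal through small membrane adaptors. Fcer1g, Cd247 and Tyrobp carry immunoreceptor tyrosine-based activation motifs (ITAMs), which Src-family kinases phosphorylate and which then recruit the tyrosine kinases Syk and Zap70, whereas Hcst carries a different tyrosine motif that recruits phosphatidylinositol 3-kinase and Grb2. The kinases phosphorylate membrane scaffolds and the exchange factor Vav1, steps that lead to calcium flux, cytoskeletal rearrangement and release of cytotoxic granules. RUNX proteins bind the sequence TGNGGN, in which either N is T or C, and in NKC they are known for their part in the control of lineage receptors.

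All 10 genes had a Runx3 peak in their window, where 41.1% of all protein-coding genes had one. The number per gene ranged from 1 at Zap70 and Lat2 to 4 at Tyrobp and Hcst, with a median of 2.5 against 0 over all protein-coding genes. All 10 also had an H3K4me1 peak, against 51.1% of all genes. The number per gene ranged from 1 at Fcgr3 to 16 at Lat2, with a median of 11 against 1. Longer genes had peaks more often, with a Runx3 peak at 30.3% of genes under 10 kb, 46.6% of genes of 10 to 50 kb and 51.2% of longer genes. Among the members these classes held 4, 3 and 3 genes. The members' median gene length, 14260 bp, was close to the 15430 bp of all genes. For resting cells the study reports that Runx3-bound genes and expression above background were related. The genes compared here were not limited to expressed ones, and the part of expression in these counts was not tested.

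**Figure D1:**
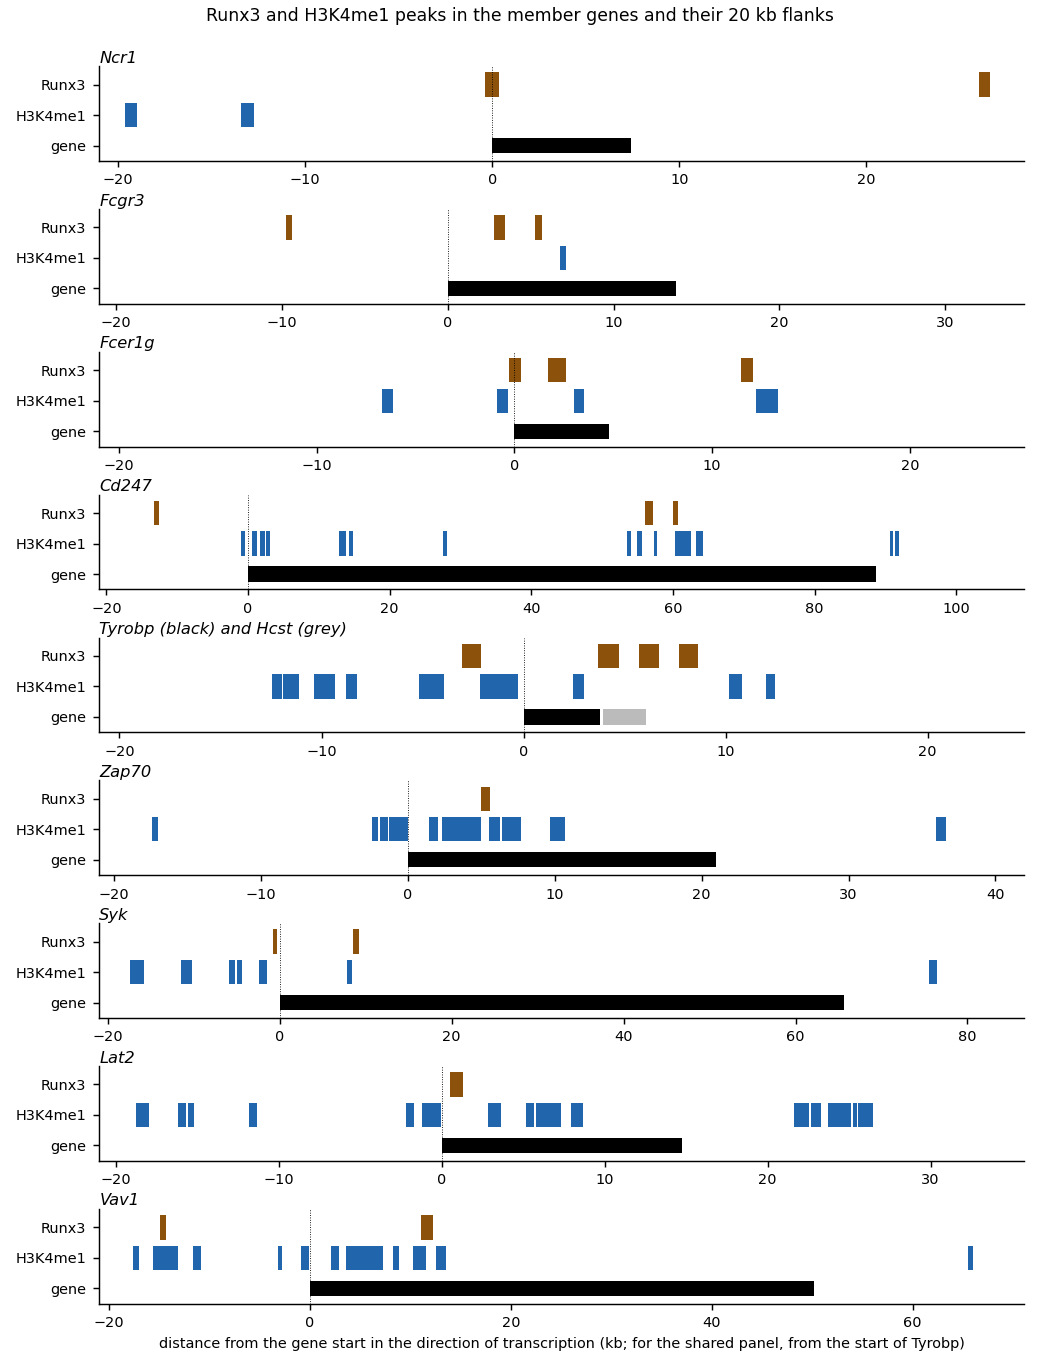
Runx3 peaks (brown), H3K4me1 peaks (blue) and gene bodies (black, Hcst in grey) are drawn to scale for the 9 loci, against the distance in kb from the gene start in the direction of transcription (dotted line); close neighbours merge at this scale. Ncr1, Fcgr3 and Fcer1g show fewer H3K4me1 peaks (2, 1 and 4) than the other loci, which show 7 to 16.

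A peak centred within 1 kb of a TSS of the gene, the distance at which the study speaks of promoters, was present at 6 of the 10 genes (Ncr1, Fcgr3, Fcer1g, Hcst, Syk and Lat2), where 13.3% of all protein-coding genes had one. A Runx3 peak that shared at least 1 bp with an H3K4me1 peak was present at 5 of the 10 (Cd247, Tyrobp, Hcst, Zap70 and Vav1), against 20.5% of all genes. Hcst alone had both, and its overlapping peak lay at the far side of the neighbouring Tyrobp. This peak, with 28 bp shared, was counted for both Tyrobp and Hcst. The 4 genes without a promoter peak (Cd247, Tyrobp, Zap70 and Vav1) each had an overlapping peak in an intron or upstream.

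The receptors come first. Ncr1 (ENSMUSG00000062524.3, chr7:4289326-4296766, plus strand, mm9) encodes NKp46, a receptor that marks NKC. It had 2 Runx3 peaks, a number that 18.1% of all genes reached or passed, and 2 H3K4me1 peaks, which 36.8% reached or passed. The first Runx3 peak (chr7:4288950-4289673) was centred 15 bp upstream of the gene start. It held 2 copies of TGTGGT and no ETS motif, the binding sequence of a family of factors often found beside RUNX, searched on both strands as NGGAAN with A or C as the first N and A or G as the last. The 250 bases upstream of the gene start, shown because both RUNX copies lie in them, are given on the plus strand with the RUNX matches in capitals (ACCACA is TGTGGT on the minus strand).

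Ncr1 upstream, chr7:4289076-4289325: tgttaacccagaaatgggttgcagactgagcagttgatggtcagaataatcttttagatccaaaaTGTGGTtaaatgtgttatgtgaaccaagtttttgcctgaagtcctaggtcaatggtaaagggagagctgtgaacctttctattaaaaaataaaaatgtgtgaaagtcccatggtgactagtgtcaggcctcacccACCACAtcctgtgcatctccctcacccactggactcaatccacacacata

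The copies were centred at -182 and -47 bp relative to the gene start, on opposite strands. All 40-mers of this peak (100%) and of the 500 bp on either side of the gene start occurred once in the genome, so reads of 40 bp could be placed there. The nearest H3K4me1 peak began 12348 bp away on the upstream side, and on the downstream side the nearest lay 152612 bp from the peak centre. Both H3K4me1 peaks of Ncr1 were thus upstream of the gene, 632 and 675 bp wide, and none lay in its body.

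The second Ncr1 peak (chr7:4315336-4315941) lay 18569 bp beyond the 3′ end of the gene, with no protein-coding TSS closer than that of Ncr1. It held 2 RUNX motifs, 1 ETS motif and 2 copies of the AP-1 motif, searched as TGACTCA and its reverse complement. Here the RUNX match nearest the centre is shown, on the minus strand, 11 bp from the centre, with an AP-1 word 6 bases after it in lower case.

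Ncr1 downstream, chr7:4315604-4315649: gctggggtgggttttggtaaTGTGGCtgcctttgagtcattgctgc

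Among the 21 peaks, 3 held an AP-1 motif (14.3%, 95% Wilson interval 4.98 to 34.6), against 26.2% of all Runx3 peaks. The interval includes the share over all peaks. Besides this Ncr1 peak, those with the motif were in the windows of Fcgr3 and Hcst. Windows of the same widths 10 kb to either side of all Runx3 peaks held it in 12.6%. The intervals cover counting error only, and peaks of a locus are not replicates.

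Fcgr3 (ENSMUSG00000059498.6, chr1:172981300-172995066, minus strand) encodes the low-affinity Fc receptor CD16, which binds antibody on target cells. It had 3 Runx3 peaks, which 7.36% of all genes reached or passed, and 1 H3K4me1 peak, the lowest number among the members. Of all genes, 51.1% had at least as many H3K4me1 peaks as Fcgr3. Its first Runx3 peak (chr1:173004463-173004799) lay upstream, 9565 bp from the gene start, and was the narrowest of the 21 at 337 bp. Of its 40-mers 33.9% occurred once in the genome, the lowest share among the 21 peaks.

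The other Fcgr3 peaks lay in introns of the gene. That at chr1:172991590-172992299 was centred 3122 bp into the gene and held 4 RUNX motifs, 3 ETS motifs and 1 AP-1 motif, with RUNX matches whose starts lay 9 bp apart near the centre. The one at chr1:172989357-172989806 was centred 5485 bp into the gene and 47 bp upstream of an alternative annotated TSS, and this is the promoter peak counted for Fcgr3. Around the centres the sequences on the minus strand, which is the strand of the gene, read as follows, with the RUNX match nearest the centre in capitals. The first contains a second match in lower case, tgtggc.

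Fcgr3 intron, chr1:172991885-172991930: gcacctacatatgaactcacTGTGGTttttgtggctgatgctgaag

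Fcgr3 alternative TSS, chr1:172989542-172989587: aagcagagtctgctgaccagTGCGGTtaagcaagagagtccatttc

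No Fcgr3 peak overlapped an H3K4me1 peak, and the smallest gap was 1054 bp. At the annotated 5′ end of Fcgr3 no Runx3 peak was listed, but only 17.3% of 40-mers within 500 bp of it occurred once in the genome, against 97.8% to 100% at the other members. Over the whole window the share was 61.1% at Fcgr3 and 77.8% at Ncr1, and 93.7% to 97.9% at the rest. The numbers of H3K4me1 peaks at these receptors were low beside the other members. Since only uniquely aligned reads were used, these numbers stand beside low mappability of the receptor windows. In the gene bodies alone the share was 81.6% at Fcgr3 and 92.7% at Ncr1, with 92.9% at Tyrobp. The part of mappability in the low numbers was not tested.

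Of the adaptors, Fcer1g (ENSMUSG00000058715.6, chr1:173159703-173164496, minus strand) encodes the Fc receptor gamma chain, which carries an ITAM and pairs with both CD16 and NKp46. The gene lies 165 kb from Fcgr3. It had 3 Runx3 peaks and 4 H3K4me1 peaks, and none overlapped. Of all genes, 20.6% had 4 or more H3K4me1 peaks. The peak at the gene start (chr1:173164170-173164779) was centred 22 bp into the first exon and held 2 RUNX and 4 ETS motifs. The RUNX match nearest its centre lies in the 5′ UTR, and 30 bases around it are shown on the minus strand because an AGGAAG word, in lower case, stands 8 bases before it.

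Fcer1g first exon, chr1:173164458-173164487: gcaggaaggagggaacTGTGGTcagggaac

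The second peak (chr1:173161894-173162794) was in an intron, 2152 bp into the gene, with 4 RUNX and 5 ETS motifs. Here too a RUNX match and an ETS word were adjacent, with an AGGAAG on the plus strand 1 base from the RUNX match, so that the minus strand shown reads cttcct after it.

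Fcer1g intron, chr1:173162407-173162452: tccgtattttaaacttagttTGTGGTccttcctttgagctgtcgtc

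The third (chr1:173152416-173153023) lay beyond the 3′ end of Fcer1g and was centred 74 bp from the TSS of Tomm40l, a gene of a mitochondrial import protein, so its place in the window of Fcer1g rests on the 20 kb rule. At each of the 3 Fcer1g peaks an H3K4me1 peak lay close without touching, with gaps of 64, 405 and 151 bp.

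Cd247 (ENSMUSG00000005763.8, chr1:167718812-167807407, plus strand) encodes CD3 zeta, a chain with several ITAMs that NKp46 also uses. It was the longest member, 88596 bp, with 3 Runx3 and 14 H3K4me1 peaks, the latter a number that 2.19% of all genes reached or passed. Per 100 kb of window it had 2.33 Runx3 peaks, against 6.7 at Fcer1g and 9.13 at Tyrobp. No Runx3 peak lay at any of its 6 annotated TSSs, the nearest being 9228 bp away. H3K4me1 peaks lay on both sides of the gene start, and 11 of the 14 were in the gene body.

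The Runx3 peaks inside Cd247 formed a pair deep in the gene, 56604 bp and 60307 bp from the gene start. The former (chr1:167774894-167775938) held 7 RUNX motifs, the most among the 21 peaks, and lay between H3K4me1 peaks that ended 1006 bp from its centre on the left and began 737 bp from it on the right. The latter (chr1:167778770-167779469) was covered over 350 bp, 50% of its length, by an H3K4me1 peak of 2199 bp, whose edge lay 1 bp from the peak centre. The remaining peak (chr1:167705590-167706211), centred at -12912 bp relative to the gene start, was nearer to the TSS of Creg1 (12023 bp) and had no H3K4me1 peak within 11583 bp.

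The RUNX matches nearest the 3 centres are given in gene order because the first pair carries the TGCGGT variant; the middle match is on the minus strand and the others on the plus strand.

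Cd247 upstream, chr1:167705872-167705917: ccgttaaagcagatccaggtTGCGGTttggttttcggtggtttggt

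Cd247 intron, chr1:167775328-167775373: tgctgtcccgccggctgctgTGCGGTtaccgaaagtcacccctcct

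Cd247 intron, chr1:167779138-167779183: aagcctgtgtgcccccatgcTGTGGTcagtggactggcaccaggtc

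TGCGGT was present in 7 of the 21 peaks (33.3%, 17.2 to 54.6), against 21.8% of all Runx3 peaks and 6.05% of flanking windows. The interval includes the share over all peaks.

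Tyrobp (ENSMUSG00000030579.9, chr7:31198807-31202596, plus strand) encodes DAP12, the ITAM adaptor of activating lectin-like receptors, and Hcst (ENSMUSG00000064109.6, chr7:31202732-31204873, minus strand) encodes DAP10, the adaptor of NKG2D. The genes face each other with 135 bp between their 3′ ends, so all 4 Runx3 and all 12 H3K4me1 peaks are counted for both and make 1 locus. With 9.13 and 9.49 Runx3 peaks per 100 kb of window they were the most densely bound members, against a 75th percentile of 1.818 over all genes. Only 3.23% of genes reached 4 Runx3 peaks and 3.15% reached 12 H3K4me1 peaks.

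The peaks were spread across the locus. The first (chr7:31195785-31196685) was centred 2572 bp upstream of Tyrobp, lay between H3K4me1 peaks and shared 28 bp (3.11% of its length) with the nearer one. The second (chr7:31202488-31203554) spanned the 3′ ends of both genes, with 704 bp to the nearest H3K4me1 peak. The third (chr7:31204514-31205498) was centred 133 bp upstream of the start of Hcst, with 2730 bp to H3K4me1. The fourth (chr7:31206509-31207463) lay in an intron of Nfkbid, which encodes a nuclear inhibitor of NF-kappaB, 235 bp from its TSS. Thus Hcst had a promoter peak and Tyrobp did not.

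The RUNX match nearest the centre of the third peak is shown because it lies in the 5′ UTR of Hcst, 70 bp into the gene, and is in capitals on the plus strand, opposite to the gene.

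Hcst first exon, chr7:31204784-31204813: gggatctggccaaaacTGTGGTccagggaa

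The peak upstream of Tyrobp held 5 RUNX matches, from 151 bp on the upstream side of its centre to 281 bp on the downstream side.

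**Figure D2:**
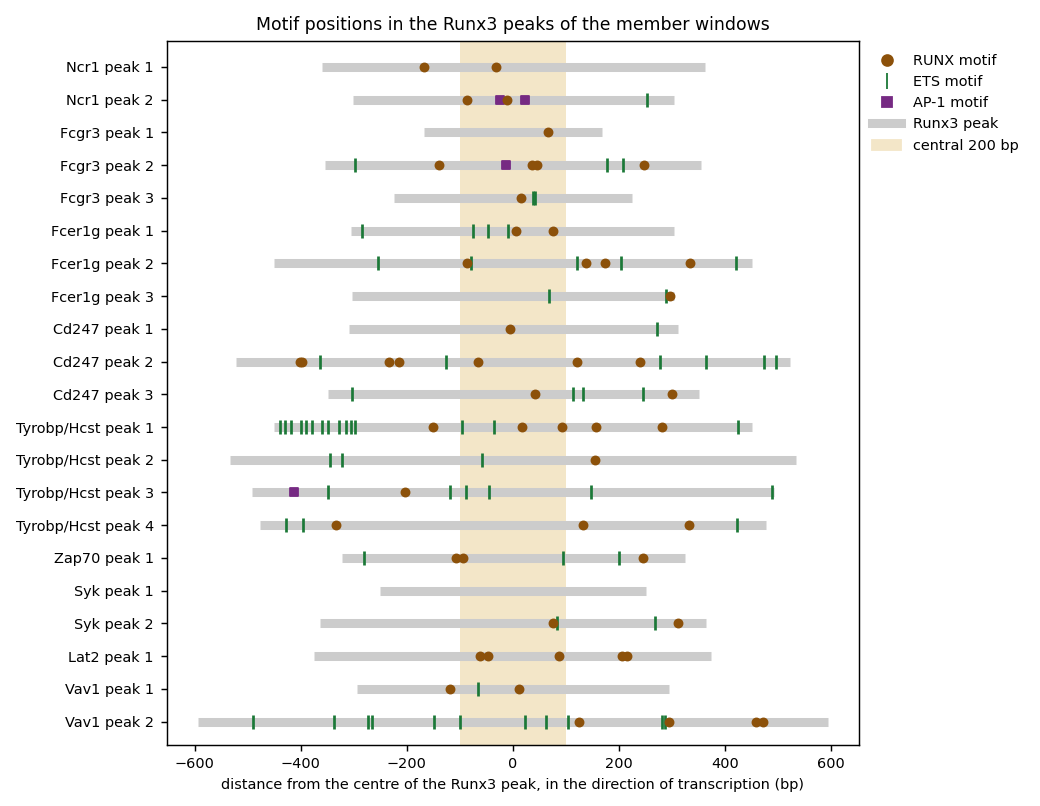
Each grey bar is 1 of the 21 Runx3 peaks, drawn from its centre in bp in the direction of transcription of the named gene, with RUNX motifs as circles, ETS motifs as vertical ticks and AP-1 motifs as squares; the shaded band is the central 200 bp. RUNX motifs were present in 20 peaks and in the central band of 15, and the first peak of Syk holds no symbol.

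The kinases differed in where Runx3 was bound. Zap70 (ENSMUSG00000026117.7, chr1:36818695-36839663, plus strand) encodes the kinase best known from T cells. It had 1 Runx3 peak (chr1:36823657-36824304), in an intron 5285 bp from the gene start, and 10 H3K4me1 peaks. These flanked the Runx3 centre at 315 bp on the left and 215 bp on the right, and together covered 119 bp (18.4%) of the Runx3 peak at its edges. The peak held 3 RUNX motifs. The match nearest the centre is a TGCGGC on the plus strand. A TGTGGT on the minus strand, seen in lower case as accaca, starts 13 bp before the start of that match.

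Zap70 intron, chr1:36823862-36823907: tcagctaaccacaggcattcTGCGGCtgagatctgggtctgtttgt

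Syk, listed under its synonym Sykb in the annotation (ENSMUSG00000021457.8, chr13:52678542-52744161, plus strand), encodes the other kinase of the family. It had 2 Runx3 and 7 H3K4me1 peaks, none of which overlapped. The first Runx3 peak (chr13:52677736-52678238), 555 bp upstream of the gene start, was the only 1 of the 21 without a RUNX motif, and held no ETS or AP-1 motif either, although all of its 40-mers (100%) were unique. Its central 200 bp are shown on the plus strand for that reason, with nothing in capitals.

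Syk upstream, chr13:52677887-52678086: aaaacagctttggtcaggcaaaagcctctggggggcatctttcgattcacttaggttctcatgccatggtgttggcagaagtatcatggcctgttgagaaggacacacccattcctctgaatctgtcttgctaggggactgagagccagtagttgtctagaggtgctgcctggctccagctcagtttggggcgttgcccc

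The absence of a match means only that none of the letters searched stands in this peak. The second peak (chr13:52687065-52687792) was in an intron, 8886 bp into the gene and 139 bp from an H3K4me1 peak. Its RUNX match nearest the centre, on the minus strand, follows an AGGAAG, in lower case, after 1 base.

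Syk intron, chr13:52687481-52687526: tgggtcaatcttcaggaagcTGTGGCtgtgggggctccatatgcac

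Lat2 (ENSMUSG00000040751.6, chr5:135076138-135090893, minus strand) encodes the membrane scaffold NTAL, a relative of the T-cell scaffold LAT. It had the most H3K4me1 peaks, 16, which 1.62% of all genes reached or passed and which covered 21% of its window. Of these, 5 were in the body of Lat2, 5 in the neighbouring gene Rfc2 beyond its 3′ end and 4 in Eif4h beyond its 5′ end. The only Runx3 peak (chr5:135089607-135090356) was in the first part of the gene, in an intron 912 bp from the TSS, between H3K4me1 peaks and 599 bp from the nearer.

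This Lat2 peak held 5 RUNX motifs and no ETS motif. All of them fall in the 284 bases shown on the minus strand, the strand of the gene, where matches on either strand are in capitals.

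Lat2 intron, chr5:135089763-135090046: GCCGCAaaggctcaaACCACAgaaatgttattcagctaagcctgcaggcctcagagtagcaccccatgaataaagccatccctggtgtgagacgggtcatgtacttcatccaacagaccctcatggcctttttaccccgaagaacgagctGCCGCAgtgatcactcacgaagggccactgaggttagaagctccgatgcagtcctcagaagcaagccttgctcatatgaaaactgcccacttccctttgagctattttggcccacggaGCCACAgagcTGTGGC

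Vav1 (ENSMUSG00000034116.9, chr17:57418523-57468659, plus strand) encodes a guanine nucleotide exchange factor. It had 2 Runx3 peaks and 14 H3K4me1 peaks, both of the former overlapping the latter. The first (chr17:57403534-57404124), 14694 bp upstream of the gene start, was covered over 98.1% of its length and was the only 1 of the 21 centred inside an H3K4me1 peak. The second (chr17:57429567-57430755), in an intron 11638 bp into the gene, was the widest of the 21 at 1189 bp, shared 495 bp (41.6%) with an H3K4me1 peak and held 11 ETS and 4 RUNX motifs. The match nearest each centre is shown, the former on the plus and the latter on the minus strand, as examples of RUNX motifs under and beside the mark.

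Vav1 upstream, chr17:57403817-57403862: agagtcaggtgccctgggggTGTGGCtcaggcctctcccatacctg

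Vav1 intron, chr17:57430263-57430308: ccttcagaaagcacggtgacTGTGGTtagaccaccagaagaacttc

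**Figure D3:**
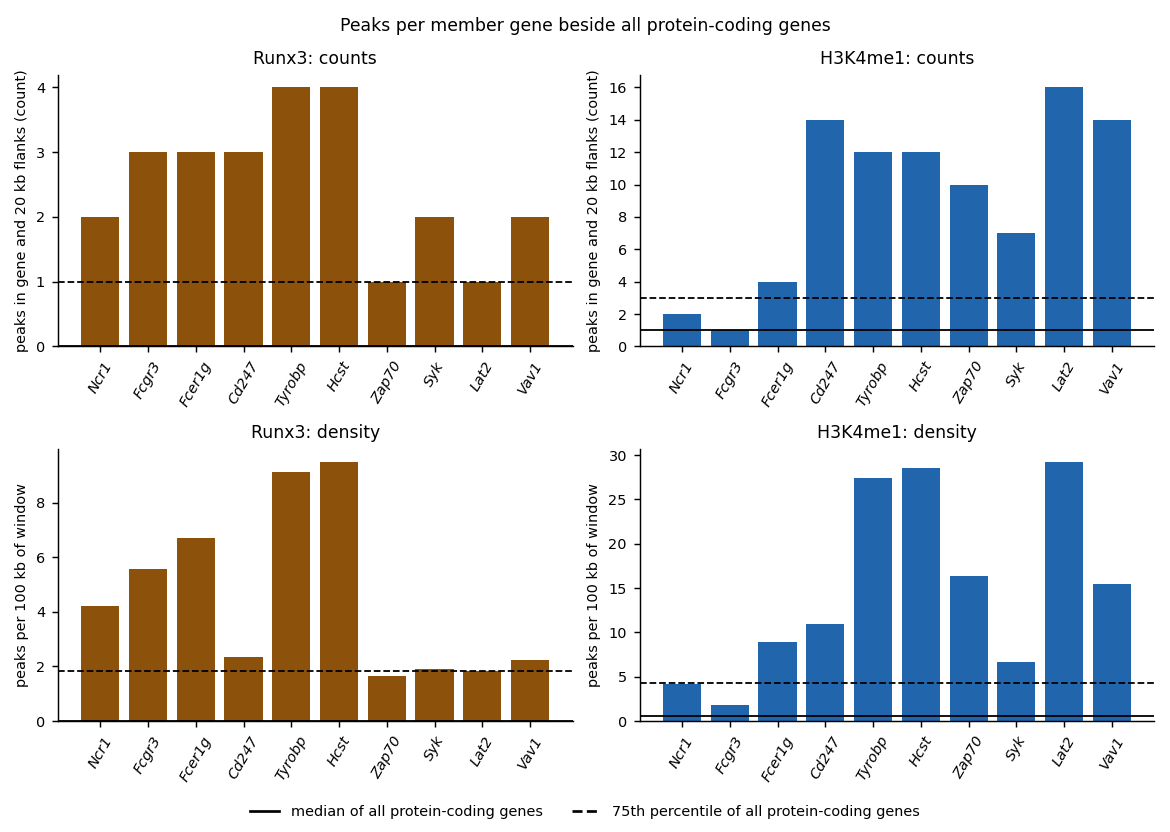
Bars give the number of Runx3 (left) and H3K4me1 (right) peaks per member, in the gene and its 20 kb flanks (top) and per 100 kb of that window (bottom); the solid line is the median and the dashed line the 75th percentile of 22350 protein-coding genes. Runx3 density was highest at Tyrobp and Hcst (9.13 and 9.49) and lowest at Zap70 (1.64), whereas H3K4me1 density was highest at Lat2 (29.2) and lowest at Fcgr3 (1.86).

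The counts of the 2 lists did not rank the members alike. Fcgr3 had 3 Runx3 peaks and 1 H3K4me1 peak, and Lat2 had 1 and 16. Ncr1, Fcgr3 and Fcer1g had 4.22, 5.58 and 6.7 Runx3 peaks per 100 kb with 4.22, 1.86 and 8.93 H3K4me1 peaks per 100 kb. Zap70, Lat2 and Vav1 had 1.64, 1.83 and 2.22 Runx3 peaks per 100 kb with 16.4, 29.2 and 15.5 of H3K4me1. The other members did not divide in this way. Tyrobp and Hcst were high in both lists, with 9.13 and 9.49 Runx3 and 27.4 and 28.5 H3K4me1 peaks per 100 kb. Syk, with 1.89 and 6.63, and Cd247, with 2.33 and 10.9, lay below the members' medians of 3.274 and 13.21. The Syk and Cd247 values were still above the 75th percentiles of all genes, 1.818 and 4.303. Below these percentiles were the Runx3 value of Zap70 (1.64) and the H3K4me1 values of Ncr1 (4.22) and Fcgr3 (1.86).

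Taking the 21 Runx3 peaks as a set, 5 (23.8%, Wilson interval 10.6 to 45.1) overlapped an H3K4me1 peak, against 48.4% of all Runx3 peaks, which lies above the interval. Of the 21, 8 were centred within 1 kb of any TSS (38.1%, 20.8 to 59.1), an interval that includes the 25.3% of all Runx3 peaks, and 2 of the 8 were at the TSSs of Tomm40l and Nfkbid. Overlap was less frequent near TSSs in the whole list, with 20.5% of peaks centred within 1 kb of any TSS and 57.8% of the others. In the members none of 8 peaks near a TSS overlapped (interval 0 to 32.4), and 5 of the 13 others did (38.5%, 17.7 to 64.5), and both intervals include the share of the whole list. An H3K4me1 peak within 1 kb of the Runx3 peak was present for 13 of the 21 (61.9%, 40.9 to 79.2), against 61.3% of all.

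The share of overlap depended on the window. It was 25% (4 of 16) with flanks of 5 kb, 35.7% (10 of 28) with 50 kb and 51.4% (19 of 37) in the GREAT domains, which reach up to the neighbouring genes. No interval was calculated for the shares in these windows. The values that follow are again for the 21 peaks of the 20 kb windows. The median gap to the nearest H3K4me1 peak was 599 bp in the members and 48 bp over all Runx3 peaks, and the highest was 38734 bp, at the downstream peak of Ncr1. Only 1 of 21 was centred in H3K4me1 (4.76%, 0.846 to 22.7), against 28.2% of all, and 2 were covered over 50% or more of their length (9.52%, 2.65 to 28.9), against 31.6%. Peaks with H3K4me1 within 2 kb of the centre on 1 side numbered 9 (42.9%, 24.5 to 63.5), against 21.7%, and those with H3K4me1 on both sides numbered 5 (23.8%, 10.6 to 45.1), against 13.9%. The former were all 3 peaks of Fcer1g, both of Syk, and 1 each of Fcgr3 and Cd247 with 2 of the Tyrobp and Hcst locus. The latter were in Cd247, Zap70, Lat2, Vav1 and upstream of Tyrobp. The remaining 6 (28.6%, 13.8 to 50) had none within 2 kb, against 36.2% of all, and included both peaks of Ncr1 and 2 of the 3 of Fcgr3.

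**Figure D4:**
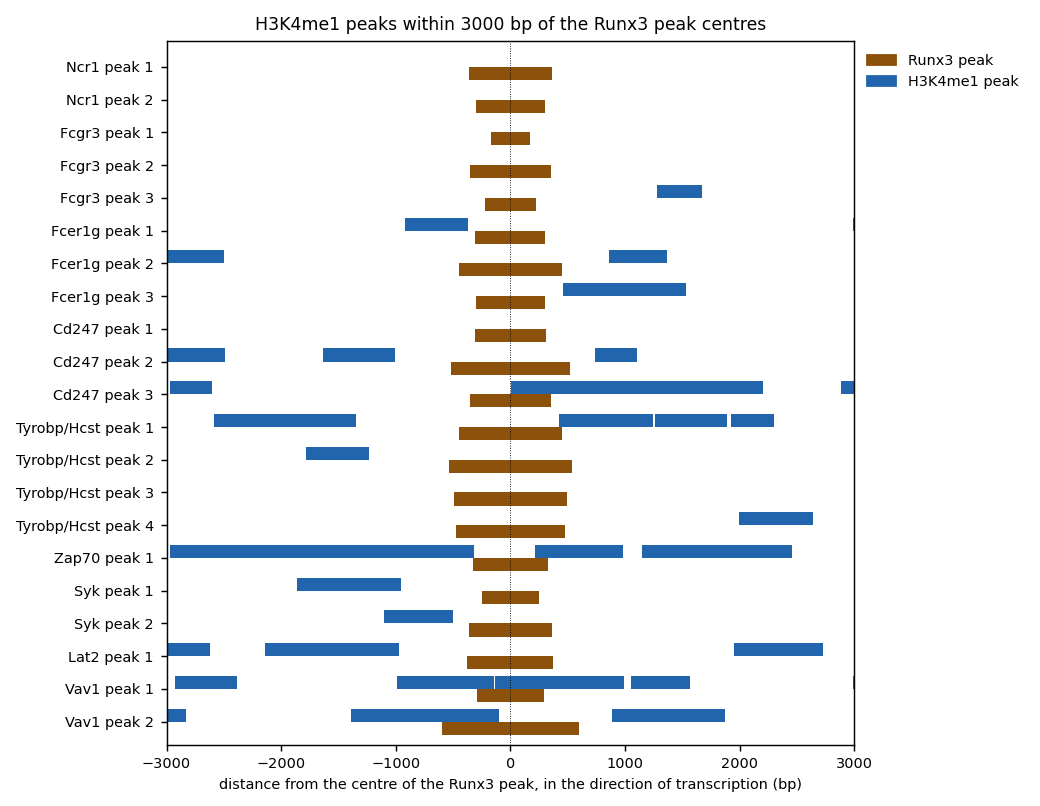
For each of the 21 Runx3 peaks (brown), H3K4me1 peaks (blue) are drawn by their distance in bp from the Runx3 peak centre (dotted line), up to 3000 bp, in the direction of transcription of the named gene. Only the first Vav1 peak has its centre under blue, and both Ncr1 peaks have none in the range.

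RUNX motifs were present in 20 of the 21 peaks (95.2%, 77.3 to 99.2), against 96.0% of all Runx3 peaks and 69.8% of flanking windows of the same widths. The central 200 bp held one in 15 (71.4%, 50 to 86.2), against 76.9%. TGTGGT was the most frequent variant, in 14 peaks against 75.9% of the list, followed by TGTGGC in 9 (57.7% of the list), TGCGGT in 7 and TGCGGC in 4 (19.2% of the list). ETS motifs were present in 17 (81.0%, 60 to 92.3), against 91.4% of all Runx3 peaks and 84.6% of flanking windows, and the 4 peaks without were at Ncr1 (the promoter), Fcgr3 (the upstream peak), Syk (the promoter) and Lat2. A RUNX and an ETS motif up to 50 bp apart were found in 12 of 21 (57.1%, 36.5 to 75.5), against 60.1%. RUNX pairs up to 50 bp apart were found in 6 (28.6%, 13.8 to 50), against 46.3%. For each of these motif shares the interval included the share of the whole list. The median width of the members' peaks was 710 bp, against 704 bp in the list.

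The other genes of the ITAM pathway were taken from a list of 47. Of these, 42 (89.4%) had a Runx3 peak in their window, against 41.1% of all protein-coding genes. An H3K4me1 peak was present at 46 (51.1% of all genes), an overlapping pair at 30 (20.5%) and a promoter peak at 19 (13.3%). The median length of these genes was 52453 bp against 15430 bp over all genes, and the part of length in the counts was not tested. The median was 2 Runx3 peaks, against 2.5 in the members. By role, a Runx3 peak was present at all 10 adaptors, all 11 inhibitors or regulators and all 3 CD3 chains, at 13 of 16 effectors, 2 of 3 Src-family kinases and 3 of 4 receptors. The 3 CD3 chains had the same numbers, 2 Runx3 and 4 H3K4me1 peaks each. A peak in several windows is counted for each gene, so these genes need not be separate loci.

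Of these 47 genes, the adaptor Sh3bp2 and the regulator Ubash3b had the most Runx3 peaks, 7 each, of which 5 and 4 overlapped H3K4me1 peaks. They were followed by the kinase Tec with 6 and by the adaptor Clnk and the phosphatase Ptpn22 with 5 each, a number also reached by Ptprc. No Runx3 peak was listed at Card9, Fcgr4, Lyn, Vav3 and Was, although each had at least 1 H3K4me1 peak and Vav3 had 16. Among relatives of the members, named here after their values were seen, Vav2 had 1 Runx3 peak against 2 at Vav1 and none at Vav3, and both Lat and Lat2 had 1.

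**Figure D5:**
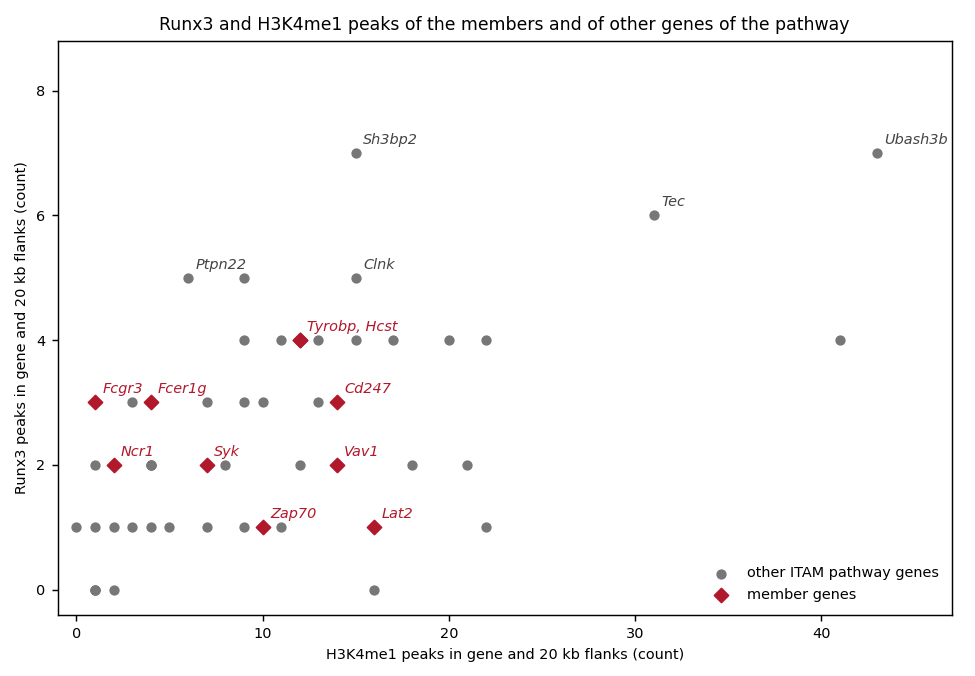
Each point is a gene, with its H3K4me1 peaks (horizontal axis) and Runx3 peaks (vertical axis) counted in the gene and its 20 kb flanks; red diamonds are the 10 members and grey circles the 47 other pathway genes. The members reach 4 Runx3 and 16 H3K4me1 peaks, and Tec (6 and 31) and Ubash3b (7 and 43) lie beyond them.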

How the data were processed

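IL-2-activated NKC were examined by ChIP-seq with 2 Runx3 libraries, 1 H3K4me1 library and 2 NIS libraries. Reads of 40 bp were aligned by the authors with ELAND (mm9), and only unique alignments were used. MACS was run by them on the pooled Runx3 reads and on the H3K4me1 reads, each with NIS as control, after scaling to equal size. What they deposited is 1 list for each antibody of peak positions in bp (the Runx3 list also holds a name for each peak), with no score and no read number, so depth and peak height were not analysed here. Starts were converted to count from 1.

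Gene models were from GENCODE M1, and bases from the mm9 genome it annotates. Windows were the gene with 20 kb flanks, and overlap needed 1 bp. Shares have 95% Wilson intervals, which cover counting error only; no test was run, since the lists pool the libraries. Motif words were searched on both strands in whole peaks, and in 22683 equally wide windows, placed 10 kb from each Runx3 peak on both sides and free of Runx3 peaks and unknown bases. Uniqueness is the share of 40-mers found once in mm9 on either strand. The members and the list of other pathway genes were chosen with earlier results of these data known. All 10 members are named, with, of the other pathway genes, the 5 with the most Runx3 peaks and up to 5 with none; Ptprc, Vav2 and Lat were added after the values were seen. Some items, among them genes of that list, are not reported here and are in none of its counts. Sequences shown were the RUNX match nearest the centre of a peak with 20 bases on either side, shortened to 30 bases in UTRs, and the stretches explained beside them. Alternatives were flanks of 5 and 50 kb, the GREAT domain (5 kb upstream, 1 kb downstream, extended by up to 1000 kb), the wider peaks of each list, joined peaks, stricter and looser overlap and other TSS rules. The overlap and motif steps were tested on simulated data. Calculations used python 3.11.15, numpy 2.4.6, pandas 2.3.3, pysam 0.24.0, statsmodels 0.14.6 and matplotlib 3.10.9.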

Additional observations from a re-analysis of the deposited data

How the results depend on the processing

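With flanks of 5 or 50 kb or the GREAT domain, all 10 members had a Runx3 peak, against 28.8%, 55.4% and 42.1% of all genes. An H3K4me1 peak was present at 9, 10 and 10 members, against 39.8%, 62% and 52.7% of all genes. GREAT domains held 37 Runx3 peaks in place of 21, 35 of them with a RUNX motif, and 19 of them (51.4%) overlapped H3K4me1. With 50 kb flanks 10 of 28 (35.7%) did, against 48.4% of all Runx3 peaks. The lower share of overlap was thus lost in the GREAT domains. No interval was calculated for the shares with 5 or 50 kb flanks. Whether these lie below the share of the whole list beyond counting error is therefore not known. With only peaks at least as wide as the median of their list, 9 members kept a Runx3 peak and 8 an H3K4me1 peak, 11 Runx3 peaks were left, 11 with a RUNX motif and 2 overlapping H3K4me1, and 3 members had an overlapping pair and 3 a promoter peak. When 50% or more of the Runx3 peak had to be covered, 2 members and 2 peaks qualified, and when an H3K4me1 peak within 1 kb was enough, 8 members and 13 peaks did. For the wider peaks and for these overlap rules no share over all genes is given, so the member counts have no background here. Of the alternative values, 26 stayed within 1.5 times the value reported and 13 did not.

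No paired analysis was possible because the Runx3 and NIS libraries share replicate numbers but the peak lists pool the libraries. For the same reason no library was left out, and no error between libraries is known. The study reports fewer uniquely aligned reads for H3K4me1 than for Runx3 in these cells, and the limit set by read depth was not tested. A region without a listed peak is below the threshold of the authors, and its binding is then not known.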
